A study of Drosophila melanogaster with 3 samples.

Results

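The 7 genes described here encode the dosage compensation machinery of Drosophila: the protein genes msl-1, msl-2, msl-3, mle and mof, and the non-coding RNA genes lncRNA:roX1 and lncRNA:roX2. They were taken by name, 7 of 18164 annotated genes on 6 chromosome arms, by a rule that uses no measured value, although earlier results of these data were known when the group was chosen. Sites bound by CG31627 were located by ChIP-seq, the sequencing of DNA pulled down with a protein, in whole white prepupae, males and females together. The animals were a transgenic line that stably expresses CG31627 with GFP at its C-terminus, and an antibody against GFP was used. All 3 libraries are biological replicates of that line, and control libraries were not analysed here, so no test between groups could be made. The sources used here do not give the promoter that drives the tagged protein. For each library a deposited list holds peaks with background left in on purpose. A pooled list holds 27240 peaks called on all libraries, of which the authors kept 7717 by the irreproducible discovery rate (IDR), which scores how well replicates rank a peak alike. A summit is the highest point of a peak. Ranks run from 1, the highest authors' signal in a list, and a q value is the false discovery rate deposited with each peak. The kept peak at the gene Mgtor ranked 7310 in both the kept and the pooled list. Down to that rank the kept list therefore held every pooled peak, and a kept peak can lack a match in a library. Depth is unknown, because the lists hold no read counts.

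In Drosophila males, a complex of MSL proteins and roX RNAs coats the X chromosome and acetylates histone H4 at lysine 16, which raises transcription of X-linked genes. The scaffold MSL1 and the RING finger protein MSL2 form the core, MSL3 and the acetyltransferase MOF join it, and the RNA helicase MLE remodels the roX RNAs for assembly. In females the RNA-binding protein SXL blocks translation of msl-2, so the complete complex forms in males. Both roX genes lie on the X and serve as entry sites of the complex. Since the animals were whole and of both sexes, a weak peak in every cell and a strong peak in few cells, or in one sex, cannot be told apart.

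Promoter summits of CG31627 at the 7 members were counted beside those of all genes. In the IDR-thresholded list only msl-1 had a promoter summit, meaning one no more than 500 bp from any start site of the gene. This was 1 of 7 genes, against 22.3% of all genes. By class, 1 of the 5 protein genes had such a summit, against 26.4% of protein-coding genes, and neither roX gene had it, against 9.51% of non-coding RNA genes. None of the 3 X-linked members (mof, lncRNA:roX1 and lncRNA:roX2) had it, against 22.8% of genes of the X, and 1 of the 4 autosomal members had it, against 22.2% of autosomal genes. With 7 genes, 1 further member would have put the share above that of all genes, so these counts do not set the group apart.

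The single libraries added lncRNA:roX1. Among the 7717 strongest peaks of each library, both msl-1 and lncRNA:roX1 had a promoter summit, 2 of 7 genes in replicates 1, 2 and 3 (2 ± 0, SD, n = 3). The background was 22.4%, 20.5% and 23.1% of all genes in these 3 libraries. In the pooled list at a q value of 0.05 or less the same 2 genes had a promoter summit, against 31.3% of all genes. With background peaks of any q value, msl-3 joined them in the pooled list, against 43.4% of all genes. Replicate 1 at any q value had a promoter summit at 7 of 7 members, against 47.5% of all genes. Replicates 2 and 3 at any q value still had 2 of 7, against 37.7% and 43.5% of all genes. Replicate 1 also had the most peaks at a q value of 0.05 or less, 17347, against 8592 in replicate 2 and 10806 in replicate 3, and its part in the count of 7 was not tested.

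**Figure D1:**
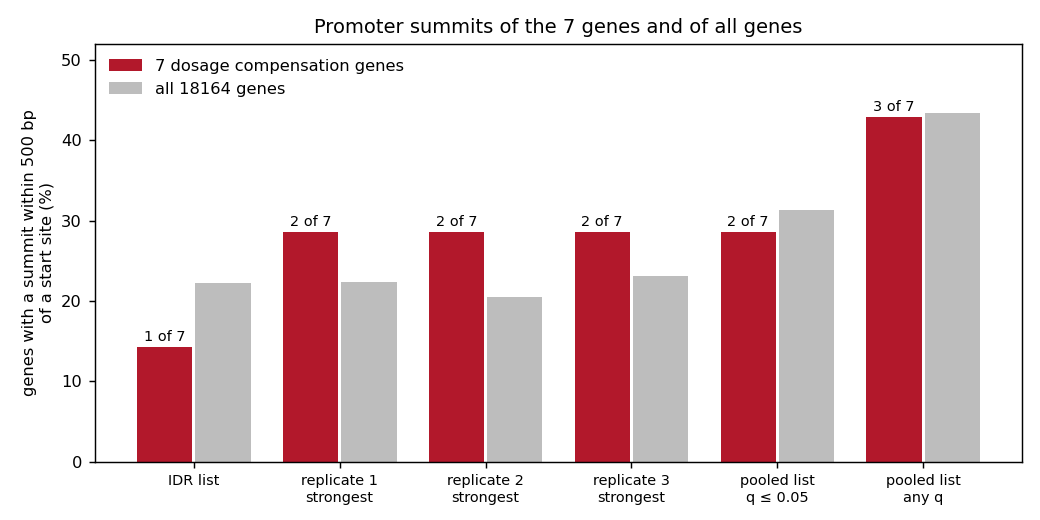
Share of genes (%) with a summit within 500 bp of a start site, for the 7 dosage compensation genes (red) and all 18164 genes (grey), in the IDR-thresholded list, the 7717 strongest peaks of each library and the pooled list. The members stand at 1 of 7 in the IDR-thresholded list and 2 of 7 in each library, with all genes at 22.3% and 20.5% to 23.1%.

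The promoter of msl-1 (FBgn0005617, 2L from 18683720 to 18688800, minus strand), which encodes the scaffold of the complex, carried the only promoter peak of the group that passed the IDR threshold. The peak spans 404 bp on 2L from 18688649 to 18689052, and its summit lay 51 bp upstream of the start site, with an authors' signal of 214 and rank 3698 of 7717. Its rank was 4394 in replicate 1, 2420 in replicate 2 and 4746 in replicate 3, a mean of 3853 ± 1250 (SD, n = 3). The library summits lay 73, 92 and 50 bp upstream of the start site in replicates 1, 2 and 3. They covered a range of 42 bp, against a median range of 34 bp over the 5727 IDR-thresholded summits matched among the strongest of all 3 libraries. Each library thus had its summit just outside the transcribed sequence, while the peaks themselves reach into it. The 101 bases around the IDR-thresholded summit follow (dm6, Release 6 sequence, plus strand, chr2L:18688801-18688901), because this is the only member promoter bound in the thresholded list.
msl-1 promoter summit: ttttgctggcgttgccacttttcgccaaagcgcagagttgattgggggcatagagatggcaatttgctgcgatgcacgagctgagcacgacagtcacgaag
The window begins at the base next to the start site and held none of the 5 motifs searched. A or T made up 46.5% of it, against a median of 65.3% over the 3223 IDR-thresholded promoter summits.

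Weaker summits lay farther out from msl-1. A pooled summit 250 bp upstream ranked 11709 and had a counterpart in every library, at rank 22123 in replicate 1, 15745 in replicate 2 and 20010 in replicate 3. The start site of CG10336, which runs the other way 728 bp from that of msl-1, had a summit 74 bp inside the gene at pooled rank 8487. That summit had rank 9661 in replicate 1, 16102 in replicate 2 and 6915 in replicate 3, so it was among the 7717 strongest in replicate 3 alone. At the other end, 1641 bp past the 3′ end of msl-1, a pooled summit of rank 10919 lay 4 bp from the start site of tos, which encodes an exonuclease.

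The msl-2 gene (FBgn0005616, 2L from 3462218 to 3466112, minus strand), which encodes the male-limited subunit, had no reproducible peak at its start site. In the pooled list the nearest summit lay 648 bp downstream of the start, in coding sequence, with rank 19219 and a q value of 0.482. Replicate 1 had a summit 42 bp downstream of the start at rank 21827 with a q value of 0.211. That summit was also 87 bp from a start site of ND-PDSW. Replicate 2 had none nearer than 2033 bp, and in replicate 3 the nearest lay 610 bp away with a q value of 0.387. No library thus had a summit with a q value of 0.05 or less at this promoter. One IDR-thresholded summit fell in the flank, 4994 bp past the 3′ end, at the outer edge of the 5 kb searched. It lay 78 bp from the start site of Sec5, an exocyst subunit gene, and 160 bp from that of Cog3, a Golgi tethering complex gene on the opposite strand. Its pooled rank was 3679, with rank 4894 in replicate 1 and 2597 in replicate 3. Replicate 2 had no summit within 150 bp of it, and its nearest lay 6855 bp away.

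The msl-3 gene (FBgn0002775, 3L from 7123213 to 7125533, minus strand), which encodes a chromodomain subunit, was the only member with no IDR-thresholded summit in the gene body or the 5 kb on either side. The pooled list had a summit 113 bp downstream of the start, at rank 16227 with a q value of 0.247. Replicate 1 had a summit at the same base with rank 8697 and a q value of 4.46e-05, and replicates 2 and 3 had none within 500 bp. The promoter signal in msl-3 thus came from 1 library. The start site of BBS1 lies 372 bp away on the opposite strand, and the pooled summit was 485 bp from it. Beyond the region searched, the nearest IDR-thresholded summit lay 8720 bp upstream of msl-3, at rank 440.

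The X-linked mof gene (FBgn0014340, X from 5873840 to 5876853, minus strand) encodes the histone acetyltransferase of the complex, which also works in the NSL complex at many autosomal and X-linked promoters. It had no summit within 500 bp of its start in the IDR-thresholded or pooled lists, nor in replicates 2 and 3. Replicate 1 had a summit 86 bp downstream at rank 24477 with a q value of 0.332. Upstream of mof stood the strongest peak found near any member. It spans X from 5880548 to 5880837, with its summit 3840 bp upstream of mof and 126 bp from a start site of CG16721, inside that gene. Its pooled rank was 896, and it had rank 855 in replicate 1, 1142 in replicate 2 and 842 in replicate 3, a mean of 946 ± 170 (SD, n = 3). A further peak of rank 3333, from 5879555 to 5879711, had its summit 2787 bp upstream of mof and 22 bp upstream of a start site of Usp30, a deubiquitinase gene. This peak had rank 2832, 4487 and 3485 in replicates 1, 2 and 3, a mean of 3601 ± 834 (SD, n = 3). At both places every library had a peak among its 7717 strongest, and neither place is a start site of mof. The windows around both summits are shown because the first is the strongest beside a member and the second holds a motif (dm6, plus strand), with capitals marking the BEAF core CGATA or its reverse complement TATCG, the motif of an insulator protein.
mof flank, CG16721 summit, chrX:5880643-5880743: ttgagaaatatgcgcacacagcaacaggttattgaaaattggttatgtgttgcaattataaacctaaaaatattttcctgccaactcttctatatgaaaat
mof flank, Usp30 summit, chrX:5879590-5879690: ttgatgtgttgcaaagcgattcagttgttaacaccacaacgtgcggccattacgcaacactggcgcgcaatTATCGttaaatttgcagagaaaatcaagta
The CG16721 window held none of the motifs searched, and A or T made up 69.3% of it. The Usp30 window was 57.4% A or T and held the BEAF core. That core lay within 50 bp of 15.4% of all IDR-thresholded summits.

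The 2 roX genes differed in where the nearby peaks lay. At lncRNA:roX1 (FBgn0019661, X from 3857230 to 3862697, minus strand, 3 annotated start sites), each library had a strong peak at the start of the gene that the thresholded list lacks. The summits lay 149 bp inside the gene in replicate 1 at rank 5202, 54 bp inside in replicate 2 at rank 4630, and 102 bp inside in replicate 3 at rank 6378, counted from the outermost start site. The mean rank of these 3 summits was 5403 ± 891 (SD, n = 3), and they covered a range of 95 bp. In the pooled list the summit lay 46 bp upstream of that start site instead, with a signal of 87.2, rank 8871 and a q value of 0.000507. The lowest signal in the IDR-thresholded list was 103. Replicate 1 had a weaker summit 50 bp upstream as well, at rank 11280, which is 4 bp from the pooled summit, whereas the summits of replicates 2 and 3 lay 100 and 148 bp from it. The pooled list had no summit inside the start of the gene, where all 3 libraries had theirs. Of all genes, 17.4% had a promoter summit among the strongest of all 3 libraries, and 22 of those 3152 genes (0.698%) had no IDR-thresholded promoter summit. Of the 2 members strongest in all 3 libraries, lncRNA:roX1 was in this class and msl-1 was not. The class was not among the planned counts and matches what was seen at lncRNA:roX1, so its share is a description only. The 260 bases across these promoter summits are shown, since library and pooled summits fall at different places in them (dm6, plus strand, chrX:3862518-3862777, the gene running leftward from position 3862697).
lncRNA:roX1 promoter: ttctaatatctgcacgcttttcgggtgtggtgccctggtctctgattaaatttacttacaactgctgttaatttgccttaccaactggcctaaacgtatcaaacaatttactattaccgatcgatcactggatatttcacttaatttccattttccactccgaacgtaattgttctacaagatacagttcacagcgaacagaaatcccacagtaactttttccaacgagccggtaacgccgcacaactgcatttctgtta
None of the 5 motifs occurred in these 260 bases, of which 59.6% were A or T.

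Upstream of lncRNA:roX1, an IDR-thresholded summit lay 4550 bp from its start, in an intron of yin, a peptide transporter gene, and 530 bp from the nearest start site of yin. This was the only IDR-thresholded summit near a member that was at no promoter. It was also the weakest of them, with a signal of 117 and rank 6862. It had rank 7061 in replicate 1, 8174 in replicate 2 and 7109 in replicate 3, a mean of 7448 ± 629 (SD, n = 3). Its summit in replicate 1 lay 492 bp from a start site of yin, inside the 500 bp promoter limit. In the thresholded list this peak passed while the promoter peak did not, although the strongest promoter summits had the better rank in every library. In the pooled list the yin peak had a signal of 117, against 87.2 for the promoter summit. The lowest signal in the thresholded list was 103.

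At lncRNA:roX2 (FBgn0019660, X from 11579065 to 11580432, plus strand), no list other than that of replicate 1 had a summit within 500 bp of the start site. That summit lay 441 bp upstream, with rank 23365 and a q value of 0.28. Summits flanked the gene instead. The stronger lay 74 bp past the 3′ end and 266 bp upstream of the start site of nod, a kinesin-like gene of meiotic chromosome segregation, in a peak on X from 11580333 to 11580601. It ranked 1916 in the IDR-thresholded list, and had rank 1817 in replicate 1, 1918 in replicate 2 and 2377 in replicate 3, a mean of 2037 ± 298 (SD, n = 3). The other lay 2270 bp upstream of lncRNA:roX2, in a peak on X from 11576704 to 11576886, between the start sites of CG11695 (88 bp away) and e(y)2 (175 bp away), a gene of the SAGA and TREX-2 complexes. Its pooled rank was 2511, with rank 2815, 2846 and 2001 in replicates 1, 2 and 3 and a mean of 2554 ± 479 (SD, n = 3). Both peaks were among the 7717 strongest of every library, and both summits lay outside the roX2 transcript, although the peak at nod reaches into its 3′ end. The windows around them are shown for comparison with the lncRNA:roX1 promoter (dm6, plus strand).
lncRNA:roX2 flank, nod summit, chrX:11580456-11580556: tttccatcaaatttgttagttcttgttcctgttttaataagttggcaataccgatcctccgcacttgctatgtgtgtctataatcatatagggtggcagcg
lncRNA:roX2 flank, CG11695 and e(y)2 summit, chrX:11576745-11576845: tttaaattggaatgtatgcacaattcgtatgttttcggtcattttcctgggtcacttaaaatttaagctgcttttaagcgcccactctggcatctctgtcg
Both windows were 60.4% A or T and held none of the 5 motifs.

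GA-rich repeats mark the recognition element through which the MSL complex and the zinc finger protein CLAMP bind the X. The 8-base core GAGAGAGA, searched on either strand, occurred at 2 places in the body of lncRNA:roX2, 1148 and 1202 bp from its start. It occurred once each in the msl-1 and mle bodies and in none of the other 4 members. Only these exact 8 bases were searched, and no share over all gene bodies was computed. These counts therefore do not show which members lack the recognition element. The lncRNA:roX2 copies lay 286 and 232 bp from the nearest IDR-thresholded summit, the one at nod. The stretch that holds them is shown with the copies in capitals, the first as its reverse complement TCTCTCTC, because it sits in the 3′ part of the RNA next to that peak (dm6, plus strand, chrX:11580203-11580284).
lncRNA:roX2 GA repeats: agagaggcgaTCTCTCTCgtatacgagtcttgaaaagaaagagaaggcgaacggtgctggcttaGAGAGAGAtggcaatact
Within 50 bp of the 8 IDR-thresholded summits near members there was no GAGAGAGA, and over all 7717 such summits the share was 0.415%. Within 300 bp, a distance set after these positions were seen, 1 of the 8 summits had it, against 7.14% of all IDR-thresholded summits. In the same 50 bp, the BEAF core CGATA lay at 2 of the 8 summits, against 15.4% of all summits. The DRE TATCGATA lay at none against 1.74%, the CA repeat CACACACA at none against 0.713%, and TTTAAAAA at none against 6.12%. Motifs were searched on both strands, and every DRE holds a BEAF core.

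The helicase gene mle (FBgn0002774, 2R from 5974857 to 5980778, minus strand, 2 start sites) had no promoter summit in the IDR-thresholded or pooled lists, nor in replicates 2 and 3. Replicate 1 had a summit 135 bp upstream of the inner start site, within the longer transcript, at rank 21545 with a q value of 0.196. The IDR-thresholded peak nearest to mle lay 358 bp past its 3′ end, 114 bp upstream of the start site of BubR1, a spindle checkpoint kinase gene that follows mle on the same strand. It spans 5974297 to 5974700 and ranked 3437. It had rank 3074 in replicate 1, 3249 in replicate 2 and 4641 in replicate 3, a mean of 3655 ± 859 (SD, n = 3). On the upstream side, a summit 69 bp from the start site of the tyrosine kinase gene Src42A ranked 13209 in the pooled list, and it had rank 9074 in replicate 1 and 17837 in replicate 3.

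**Figure D2:**
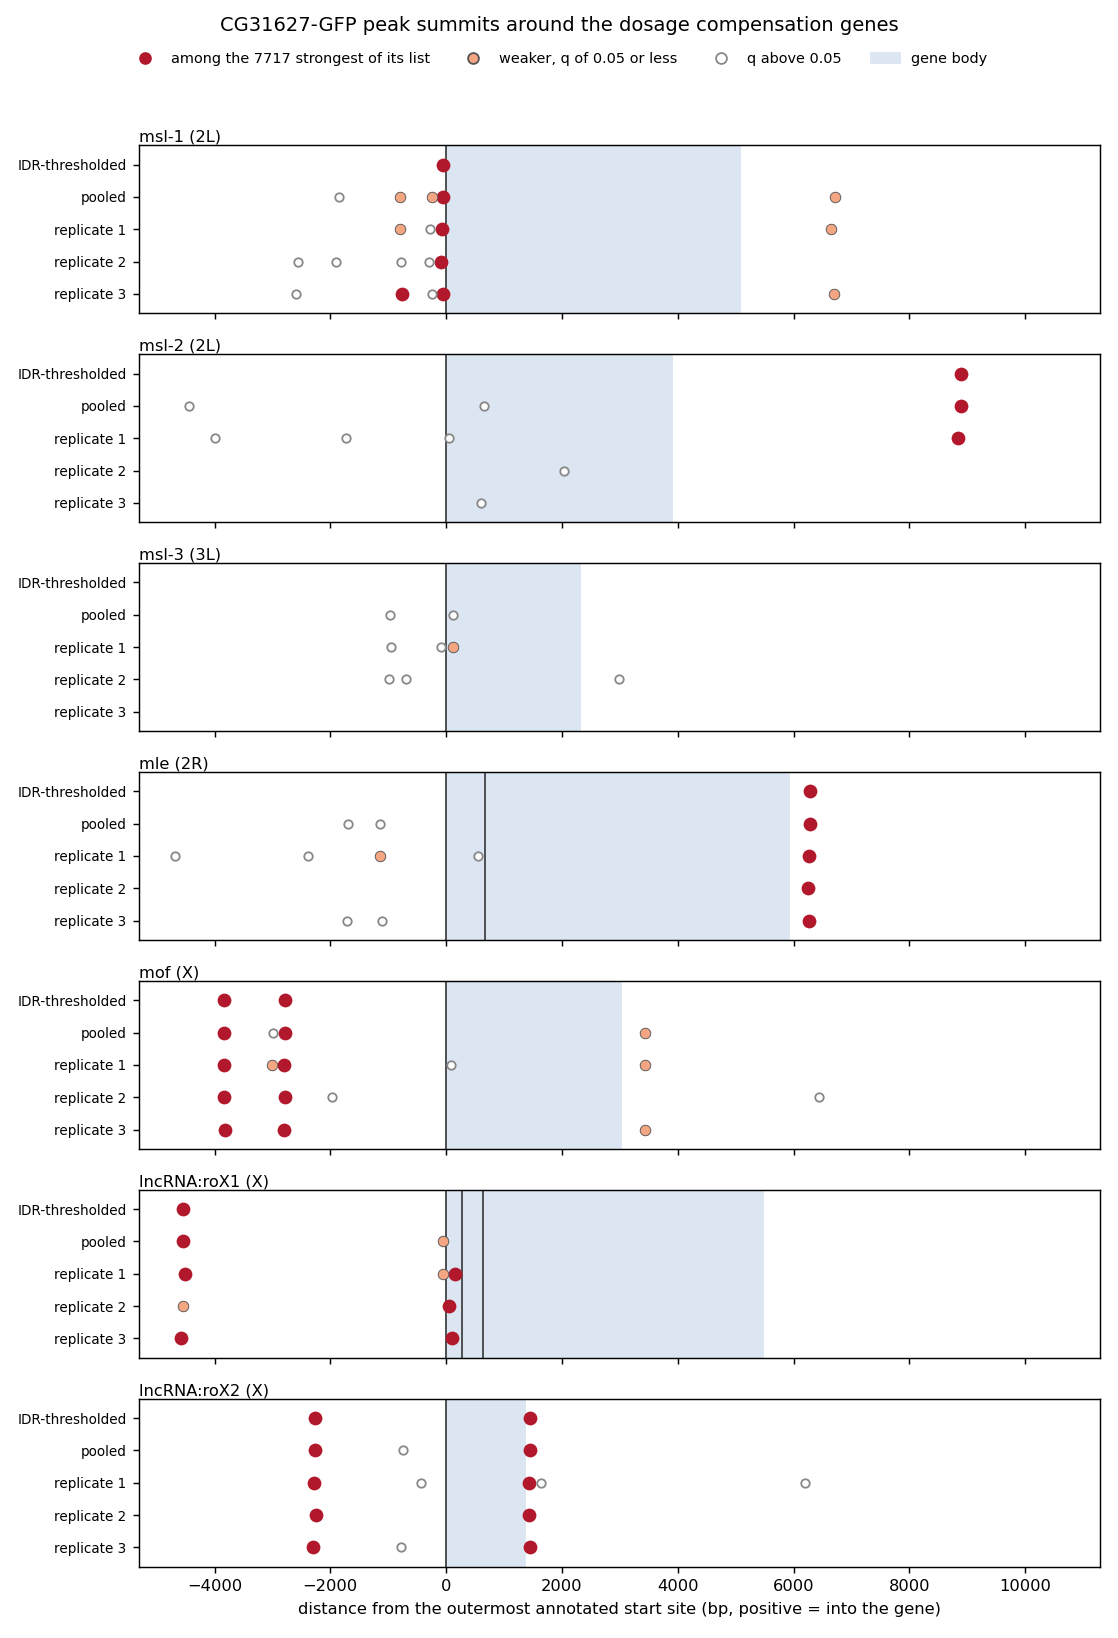
Position of every summit around the 7 genes in the 5 deposited dm6 lists, as distance (bp) from the outermost annotated start site, with positive values into the gene. Shading is the gene body and vertical lines are start sites; red summits are among the 7717 strongest of their list, orange ones are weaker with a q value of 0.05 or less, and open ones have a q value above 0.05. The red summits gather at the starts of msl-1 and lncRNA:roX1 and otherwise stand outside the shaded gene bodies.

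Over the whole group, 8 IDR-thresholded summits lay in the gene bodies plus 5 kb on each side, and 6 of 7 members had at least 1. The background was 56.8% of all genes, and 61.0% of the 7188 genes whose windows were as long as those of the members. The density was 0.82 summits per 10 kb over the 97069 bp of the 7 windows, with a median of 0.66 per member, against a median of 0.68 over all genes. None of the 8 summits lay inside the transcribed sequence of a member. One was at the promoter of the member itself, that of msl-1, 6 were at the promoter of a neighbouring gene alone, and 1 was at no promoter. The neighbours were Sec5 with Cog3, BubR1, Usp30 with CG16721, CG16721 at a further start site, CG11695 with e(y)2, and nod. Of the 8 summits, 6 were matched within 150 bp among the 7717 strongest of all 3 libraries, against 74.2% of all IDR-thresholded summits. The exceptions were the summit near msl-2, absent from replicate 2, and the one upstream of lncRNA:roX1, at rank 8174 there.

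**Figure D3:**
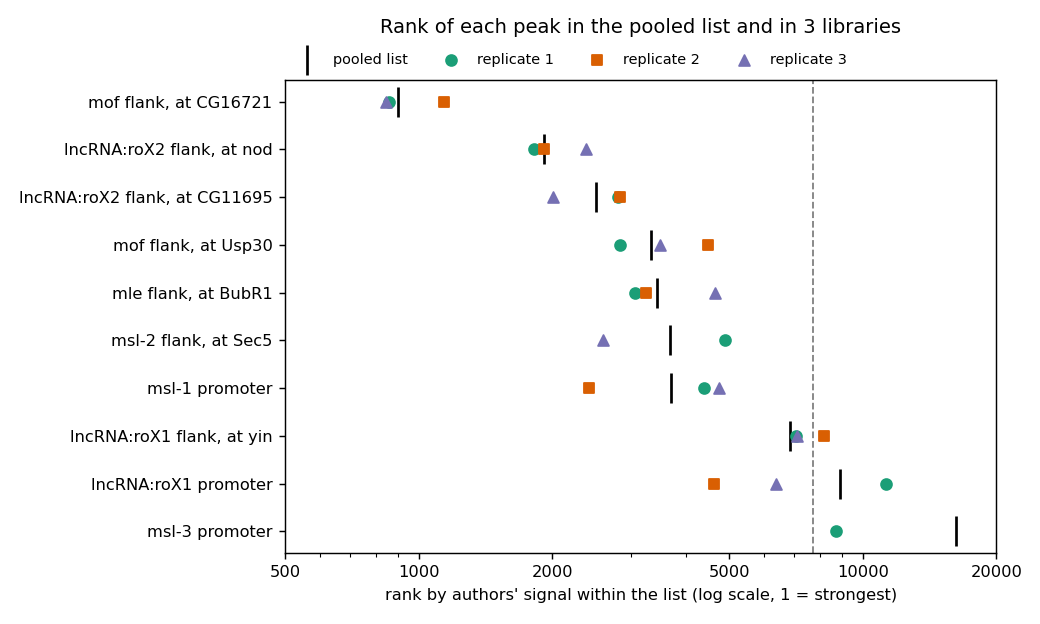
Rank by the authors' signal (log axis, 1 strongest) of the 8 IDR-thresholded peaks near the members and of the pooled promoter peaks of lncRNA:roX1 and msl-3, in the pooled list (bars) and in the nearest summit within 150 bp of each library (symbols); the dashed line is rank 7717. The mof flank peak at CG16721 is strongest, with ranks of 842 to 1142, and the nearest summit of replicate 1 to the pooled lncRNA:roX1 peak is its weaker one, at rank 11280.

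Genes around the complex were covered by a list of 33 partners and regulators, all protein-coding. CG31627 had an IDR-thresholded promoter summit at 16 of them (48.5%), against the 26.4% of protein-coding genes given above. The list has a median of 1 start site per gene, as protein-coding genes have. Trl, Unr and Sxl have 4 each, and fru, which had no such summit, has 7. More start sites widen the search, and the background was not matched for their number. The median rank of the 16 peaks was 3526. Of 11 genes of sex determination and msl-2 control, 7 had a promoter summit. The strongest was at vir (rank 1038), a gene of the methyltransferase complex needed for Sxl splicing, where the libraries had ranks 1622, 585 and 1130 in replicates 1, 2 and 3. Unr, whose protein joins SXL in blocking msl-2 translation, ranked 1220, with ranks 1207, 1196 and 1284 in replicates 1, 2 and 3. The splicing cofactor gene fl(2)d ranked 1275, although its summit lay nearer to CG13339 (119 bp) than to fl(2)d (186 bp). Sxl itself ranked 1291, with a summit 377 bp downstream of a start site and ranks 1154, 1307 and 1556 in the 3 libraries. The genes her, tra, tra2 and fru had none.

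Among recruitment and chromatin partners, 6 of 10 (60.0%) had an IDR-thresholded promoter summit, against 26.4% of protein-coding genes. Trl, which encodes GAGA factor, had the strongest peak of the list at rank 447, with ranks 354, 423 and 632 in replicates 1, 2 and 3. Su(var)3-7, a heterochromatin protein gene, ranked 2286, with its summit 170 bp away and 133 bp from Ravus. JIL-1, the histone H3 kinase gene enriched on the male X, ranked 3370 with a summit 9 bp from its start. Clamp, Set2, E(bx) and Nup153 had none. Of the 6 genes of the NSL complex, which shares MOF, 2 had a summit, led by Rcd5 at rank 3508 (121 bp away, and 74 bp from CG11593). The other 4, dgt1, Rcd1, MBD-R2 and wds, had none. Neither Pof nor egg, genes of the fourth-chromosome system, had a promoter summit. Of 4 paralogues of msl-3 or mof, chm had one, and MRG15, Tip60 and enok had none. The shares were 33.3% in the NSL complex and 25.0% in the paralogues, near the 26.4% of protein-coding genes. The groups are small, so these shares do not set them apart.

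**Figure D4:**
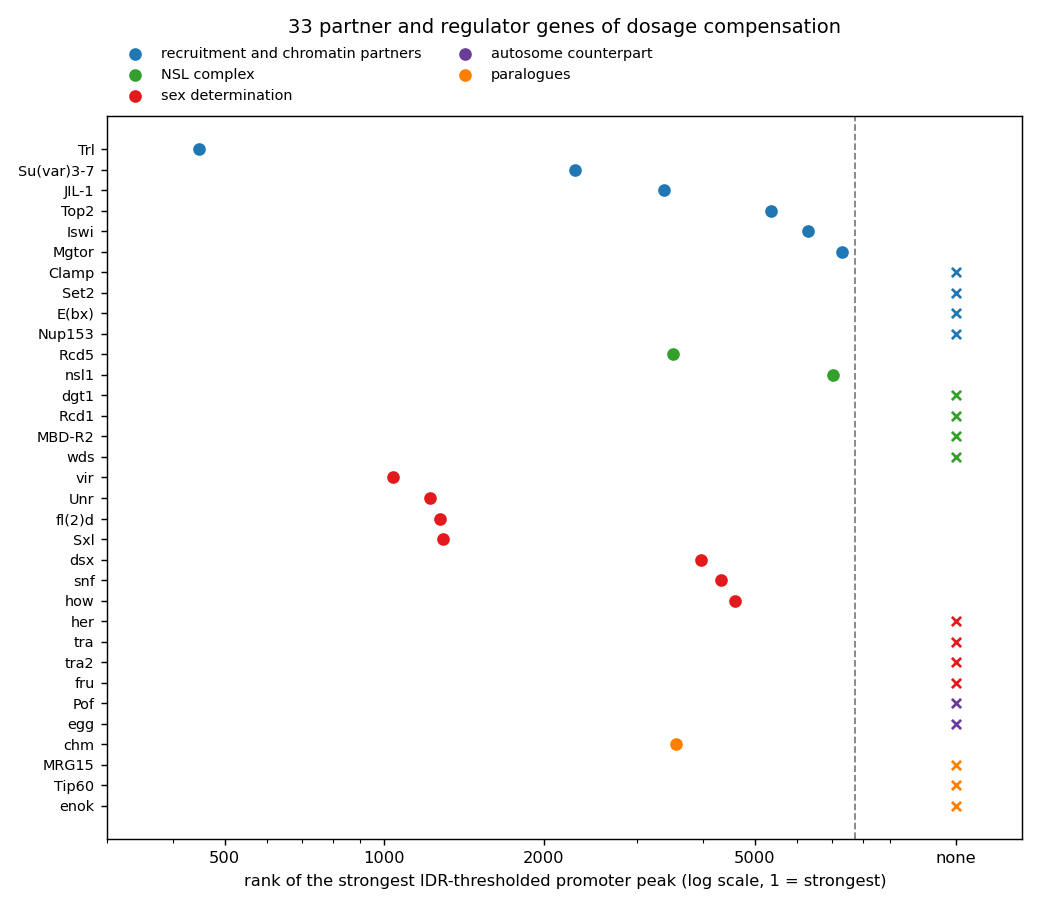
Rank (log axis, 1 strongest) of the strongest IDR-thresholded promoter peak of each of 33 partner and regulator genes, coloured by group, with a cross where there is none and a dashed line at rank 7717. Peaks stand at 16 of 33 genes, with Trl strongest at rank 447 and vir, Unr, fl(2)d and Sxl between 1038 and 1291.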

How the data were processed

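The authors deposited narrowPeak lists on dm6 and dm3. Each peak carries a signal value whose scale is not given, used as deposited for ranks within a list, and a q value deposited as −log10 with a ceiling that many peaks share. Per the deposited listing, library and pooled lists keep background as IDR input. The sources used here name neither aligner nor peak caller. Per the labels, chromatin was sonicated to 200 to 800 bp. The dm3 lists and control data were not used. No peak was identical between libraries or ran past an arm's end. Sequence came from the RefSeq Release 6 genome and genes from Ensembl release 115, without transposable elements. A promoter summit lay within 500 bp of any annotated start site, and a library summit within 150 bp of another matched it. Python 3.11.15 with pandas 2.3.3 did all counts, of which only the promoter calls were tested on simulated summits. No hypothesis test was run. The members, the motifs, the partner list and the rule for named genes (all members, and up to 8 list genes by rank) were chosen with earlier results of these data known. The symbol Mtor, shared by 2 genes, was read as Mgtor. Alternatives are in the closing section.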

Additional observations from a re-analysis of the deposited data

How the results depend on the processing

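Of 48 alternative values, 38 stayed within 1.5 times the reported count or within 1 SD of the mean rank, 10 moved and 0 reversed. For lncRNA:roX1 that mean rank was 7429 ± 3450 (SD, n = 3), from the library summits nearest to the pooled promoter summit. It is not the 5403 ± 891 given above for the strongest promoter summits. The count of members with an IDR-thresholded promoter summit was 1, the gene msl-1, with windows of 250 or 1000 bp. The count was also 1 with the 3858 strongest peaks, with outermost start sites and without each replicate in turn (range 1 to 1). Leaving out a replicate kept only the IDR-thresholded summits matched in both other libraries, and the IDR step was not redone. All counts without a replicate could therefore only stay or fall, and lncRNA:roX1 could not enter. All genes stood at 17.3% and 27.0% with these windows, 13.1% with the 3858 strongest peaks and 20.4% with outermost start sites. Without replicates 1, 2 and 3 in turn, all genes stood at 18.2%, 19.5% and 17.9%. The member count was 2 in the pooled list at a q value of 0.05 or less (31.3% of all genes) and 3 at any q value (43.4%). All peaks of replicate 1, background included, gave 7 members, against 47.5% of all genes. The summits in gene bodies plus flank numbered 3 with a flank of 2 kb, 0 with none and 13 in the pooled list at a q value of 0.05 or less. They numbered 6 to 8 without each replicate in turn. The same counts over all genes were not computed at these settings, so these numbers do not set the group apart. The partner list had 9 bound genes among the 3858 strongest peaks, where 15.7% of protein-coding genes were bound, and 14 to 15 without each replicate. Matched within 75 bp, the pooled lncRNA:roX1 promoter summit kept a counterpart in replicate 1 alone, at rank 11280. With 100 bp around summits, the DRE lay at 1 of 8 summits and TTTAAAAA at 1. No paired analysis was possible because the samples form 1 group. Depth is unknown, and the lists cannot show binding below the weakest deposited peak.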

Other observations

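Of the 17 partner and regulator genes without an IDR-thresholded promoter summit, 8 had one in the pooled list at a q value of 0.05 or less, namely Clamp, Set2, Nup153, MBD-R2, wds, her, fru and Tip60. That brought the list to 24 of 33 genes, against 36.7% of protein-coding genes bound in that list. Clamp, whose protein binds the GA repeats of the roX genes, had a pooled summit 184 bp upstream of its start at rank 9837 and another 531 bp downstream at rank 7847, close below the 7717 thresholded peaks. The SET domain gene Set2 had a pooled summit 146 bp upstream at rank 8654. Rcd1 had no pooled summit within 500 bp, and the nearest, 4464 bp upstream, ranked 202. These genes were picked out after their values were seen.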
